A study of Homo sapiens with 12 samples.

Results

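The genes described here are 35 genes of the endoplasmic reticulum (ER) stress response and of ER protein folding, listed by name, with earlier results of these data known. They were followed in RNA of 4 synovial sarcoma (SS) cell lines after 24 h with 0.3 µM or 3 µM of ZSTK474, an inhibitor of phosphatidylinositol 3-kinase (PI3K), or with vehicle alone (0 µM, which the labels also call non-treated). Aska-SS and Yamato-SS carry the fusion gene *SS18-SSX1* and SYO-1 and Fuji carry *SS18-SSX2*, as the study describes the lines, and all 4 were grown in RPMI-1640 medium with 5% fetal bovine serum. Each line and dose had 1 Affymetrix U133 Plus 2.0 expression array, 12 arrays in all, so the 4 lines are the replicates. The p-values measure the spread of the dose changes between these lines, and not that of their levels. The spread between repeated cultures of a line was not measured. Each line stands for itself and not for all tumors with its fusion gene. A probe set is a group of short probes meant to read a transcript on the array, and binding to other transcripts was not checked. Probe sets annotated with exactly 1 gene symbol were used, and the brightest of these stood for its gene. By this rule 33 of the 35 genes were measured, and all 33 passed a brightness filter (a mean log2 intensity above that of the middle probe set), among 12132 genes tested. *PDIA5* and *SYVN1* were read only by probe sets that also carry the symbol of a microRNA gene, and no value is given for them.

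Proteins that leave the cell or sit in its membranes enter the ER through the Sec61 channel and fold there with the help of chaperones, lectins and enzymes that make disulfide bonds. When unfolded proteins gather, the sensors IRE1 (gene *ERN1*), PERK (*EIF2AK3*) and ATF6 start the unfolded protein response, in which XBP1, ATF6 and ATF4 raise the transcription of chaperone and degradation genes. Proteins that do not fold are pulled back to the cytosol and degraded, a path named ER-associated degradation (ERAD). The arrays read mRNA only, and neither the splicing of *XBP1* nor the cleavage of ATF6 protein was measured.

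At 3 µM ZSTK474, 21 of the 33 genes were lower than in vehicle, 3 were higher and 9 did not pass the test (limma, cell line taken as a block, Benjamini-Hochberg adjusted p under 0.05 over all 12132 genes). Of all genes tested, 21.1% were lower and 22.6% were higher by the same rule. The median log2 change of the 33 genes was -0.43, against 0.01 for all genes. The genes that fell were 9 chaperones, all 5 measured disulfide isomerases and oxidases, *XBP1*, the ERAD genes *DERL2*, *SELENOS* and *EDEM1* and 3 genes of translocation. The genes that rose were the sensors *ERN1* and *ATF6* and the ERAD adaptor *SEL1L*, and the rises of *ERN1* and *SEL1L* rest on 1 probe set each. In 19 of the 33 genes the intensity was lower at 3 µM in each of the 4 lines, and in 5 it was higher in each, where 23.9% and 25.5% of all genes did so. For 8 genes the 4 arrays at 3 µM all lay below the 4 vehicle arrays, namely *HYOU1*, *DNAJB11*, *SDF2L1*, *CRELD2*, *PDIA4*, *DERL2*, *SELENOS* and *SEC61A1*, and for 0 genes all lay above them (6.03% and 5.3% of all genes). The deposited arrays were scaled to the same trimmed mean, so a change is relative to the other transcripts of the array. A fall in every cell cannot be told apart from a fall in a part of the cells.

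**Figure D1:**
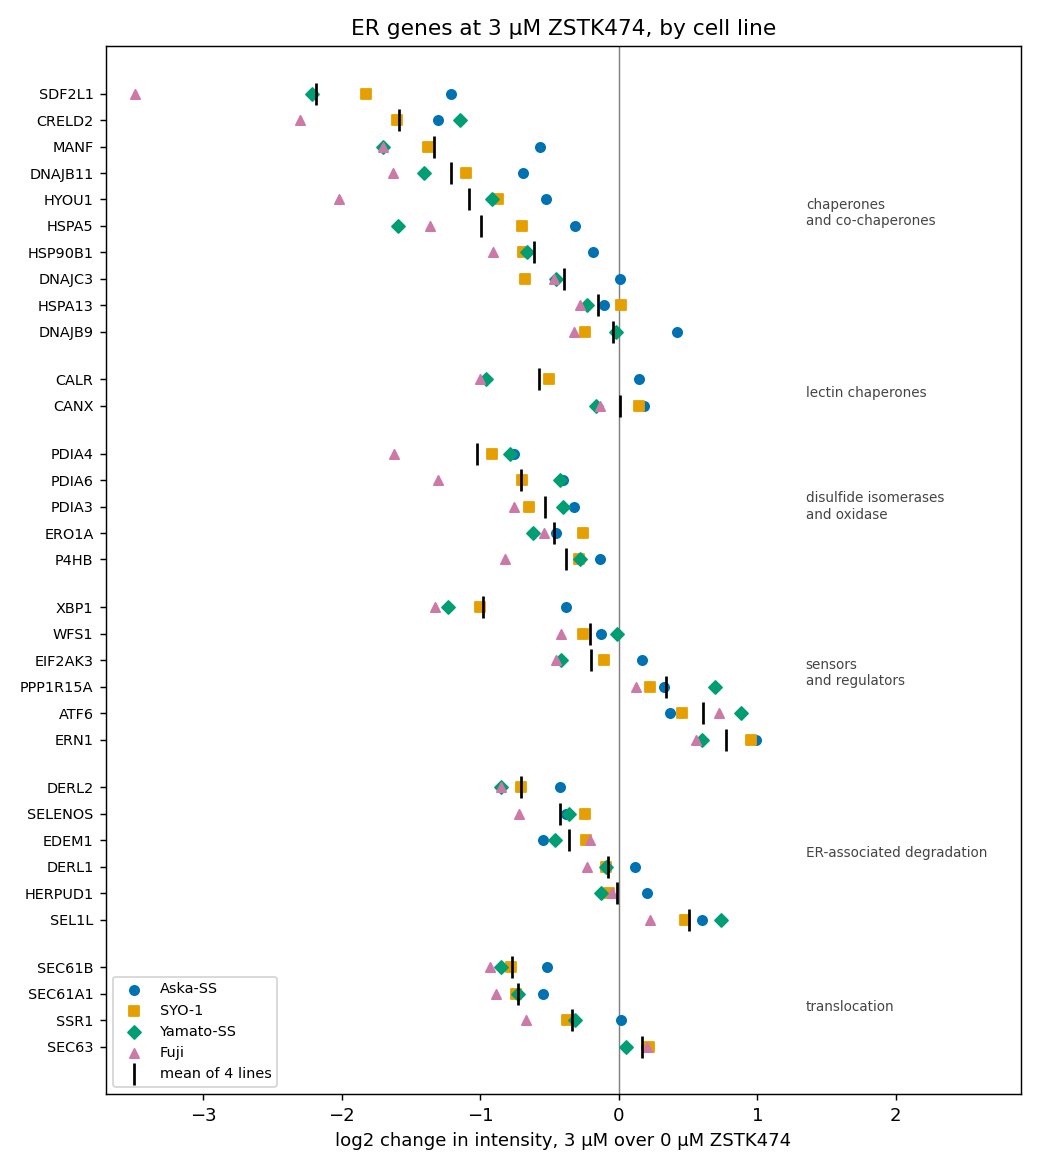
Log2 change in normalized intensity at 3 µM over 0 µM ZSTK474 (horizontal axis) for the 33 ER genes, grouped by role, with 1 symbol per cell line and a black bar at the mean of the 4 lines. The chaperones from *SDF2L1* to *HSPA5* and the disulfide isomerases lie left of 0 in all 4 lines, while *ERN1*, *ATF6* and *SEL1L* lie right of 0 in all 4.

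The promoters of several of these genes are shown because transcription of ER chaperone genes is known to run through a short element, the ER stress response element, that ATF6 and NF-Y bind. It reads CCAAT, then 9 bases of any kind, then CCACG. RefSeq windows of 250 bases before to 50 bases after the annotated start (assembly GRCh38.p14) were matched by symbol for 33 of the 35 genes, 40 windows in all, with none for *PDIA3* and *DERL1*. On either strand the element was found in the windows of 7 of these 33 genes, against 0.0916% of 27305 genes and 0.0769% of 35116 windows. These genes were listed for their known part in ER folding, so the count describes the list and is not a test of it. Of the 20 genes with a window that were lower at 3 µM, 6 held the element (*HSPA5*, *HSP90B1*, *CRELD2*, *CALR*, *PDIA6* and *XBP1*), and of the 11 other tested genes 1 held it, *CANX*. The elements are given below 5′ to 3′ on the strand that reads CCAAT, with the fixed bases in capitals.
HSPA5: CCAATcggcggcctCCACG
HSP90B1, first copy: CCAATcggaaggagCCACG
HSP90B1, second copy: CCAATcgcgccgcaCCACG
CRELD2: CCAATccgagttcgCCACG
CALR: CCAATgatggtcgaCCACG
CANX: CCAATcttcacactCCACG
PDIA6: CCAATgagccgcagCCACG
XBP1: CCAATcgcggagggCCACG
They lie at chr9:125241391-125241409 for *HSPA5*, at chr12:103930216-103930234 and chr12:103930321-103930339 for *HSP90B1*, at chr22:49918554-49918572 for *CRELD2*, at chr19:12938384-12938402 for *CALR*, at chr5:179698778-179698796 for *CANX*, at chr2:10812853-10812871 for *PDIA6* and at chr22:28800603-28800621 for *XBP1*. All elements but the first of *HSP90B1* and that of *CANX* are on the minus strand of the chromosome. *CANX*, whose element has all fixed bases, had a log2 change of 0.01 at 3 µM.

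A related element, ER stress response element II (ATTGG, 1 base of any kind, then CCACG, on either strand), was found in *HYOU1*, *SDF2L1* and *HERPUD1*, against 0.0696% of all genes. Of these, *HYOU1* and *SDF2L1* fell at 3 µM, and *HERPUD1* had a log2 change of -0.01. The 250 bases upstream of *SDF2L1* and *HYOU1*, the genes called lower that held this second element, are shown with the matches in capitals, beside those of *HSPA5* as an example of the first element. *SDF2L1* lies on the plus strand (chr22:21642052-21642301), and *HYOU1* (chr11:119057206-119057455) and *HSPA5* (chr9:125241344-125241593) lie on the minus strand.
SDF2L1: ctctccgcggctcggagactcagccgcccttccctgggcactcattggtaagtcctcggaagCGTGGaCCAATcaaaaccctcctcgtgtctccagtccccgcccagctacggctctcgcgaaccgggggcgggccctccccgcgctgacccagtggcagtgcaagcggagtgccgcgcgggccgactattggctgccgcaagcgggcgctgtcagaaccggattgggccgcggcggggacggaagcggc
HYOU1: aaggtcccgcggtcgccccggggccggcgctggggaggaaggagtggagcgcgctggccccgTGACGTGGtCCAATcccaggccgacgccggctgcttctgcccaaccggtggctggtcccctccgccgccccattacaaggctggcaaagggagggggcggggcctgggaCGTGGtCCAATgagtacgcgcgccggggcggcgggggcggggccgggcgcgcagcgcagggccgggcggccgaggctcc
HSPA5: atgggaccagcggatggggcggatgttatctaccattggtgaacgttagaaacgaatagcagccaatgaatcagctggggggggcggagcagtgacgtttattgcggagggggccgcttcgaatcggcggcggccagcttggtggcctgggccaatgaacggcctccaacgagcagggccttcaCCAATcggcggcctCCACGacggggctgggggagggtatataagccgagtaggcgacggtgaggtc
In *HYOU1* the first match overlaps a UPR element (TGACGTGG), which occurs in 0.927% of all genes and in 1 of the 33. The C/EBP-ATF element (TGATGNAA) was found in *HERPUD1* alone, against 4.46% of all genes. None of these 4 elements was matched in the windows of *DNAJB11*, *MANF* and *PDIA4*, which had log2 changes of -1.21, -1.34 and -1.02, nor in those of *ERN1*, *ATF6* and *SEL1L*. Each match, or its lack, describes letters in a window and no binding was measured.

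Among the chaperones and co-chaperones, 8 of 10 genes fell at 3 µM (80%, against 21.1% of all genes). Their median log2 change was -1.04, against 0.01 for all genes. *HSPA5*, which encodes BiP, the Hsp70 chaperone of the ER, fell by 0.99 on the log2 scale, to 0.503 of its vehicle level (SE 0.17, adjusted p = 0.000539). Its normalized intensity was 8592, 5166, 8185 and 15628.5 in Fuji, Yamato-SS, SYO-1 and Aska-SS at 3 µM, against 22055, 15589.5, 13294 and 19476 in the same lines at 0 µM (lines in this order in the sentences that follow). In Aska-SS the intensity stayed above that of the vehicle arrays of SYO-1 and, by a small margin, of Yamato-SS, so the groups overlap. *HSP90B1*, which encodes GRP94, the Hsp90 of the ER, fell by 0.61 (SE 0.10, adjusted p = 0.00059). At 3 µM *HSP90B1* stood at 7934, 8630.5, 7320.4 and 13031, against 14861.5, 13637, 11802 and 14816 at 0 µM. The 13031 of Aska-SS at 3 µM exceeded the vehicle array of SYO-1. The other probe set of *HSP90B1* did not pass, with a log2 change of -0.39 (limma adjusted p = 0.176). *HYOU1* encodes GRP170, which exchanges the nucleotide of BiP, and fell by 1.08 (SE 0.18, adjusted p = 0.000517). *HYOU1* was at 916, 1426, 1329 and 2013 with 3 µM and at 3713, 2687, 2432 and 2893 with vehicle. The 4 treated arrays lay below all vehicle arrays, with the lowest in Fuji.

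*DNAJB11* (ERdj3) and *SDF2L1* encode proteins that form a complex and pass unfolded proteins to BiP, and both were lower in every treated array than in any vehicle array. *SDF2L1* had the largest fall of the 33 genes, with a log2 change of -2.19 or 0.22 of its vehicle level (SE 0.27, adjusted p = 7.23e-05), and ranked 15 from the lowest of the 12132 genes. For *SDF2L1*, the intensities at 3 µM were 379.6, 572, 445 and 254, and those at 0 µM were 4276, 2658, 1581 and 588. Its vehicle level spread widely between the lines and its treated level did not, with SDs of 1.23 at 0 µM and 0.49 at 3 µM on the log2 scale. *DNAJB11* had a log2 change of -1.21 (SE 0.13, adjusted p = 3.13e-05). *DNAJB11* intensities were 1936, 2235, 2284 and 3239.8 at 3 µM and 5999, 5934, 4916 and 5227 at 0 µM. The vehicle arrays of *DNAJB11* lay close together (SD 0.14 on the log2 scale), so the order of the lines at 3 µM follows the size of the fall.

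*CRELD2* and *MANF* encode small ER proteins that are released under ER stress. *CRELD2* had a log2 change of -1.59 (SE 0.16, adjusted p = 2.49e-05). At 3 µM *CRELD2* stood at 1341, 1902, 1165 and 1076, against 6609.6, 4205, 3540.5 and 2663 at 0 µM. All 4 treated arrays lay below all vehicle arrays. *MANF* had a log2 change of -1.34 (SE 0.16, adjusted p = 7.32e-05). *MANF* was at 3031, 1883, 1216 and 4434 with 3 µM and at 9876, 6117, 3157 and 6574 with vehicle. The 4434 of Aska-SS lay above the vehicle array of SYO-1, so the groups overlap although each line fell.

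*DNAJC3*, which encodes the co-chaperone p58IPK, had a log2 change of -0.40 (SE 0.11, adjusted p = 0.00947). For *DNAJC3*, the intensities at 3 µM were 2869, 1577, 819 and 2711, and those at 0 µM were 3959.9, 2159, 1306 and 2698. By this brightest probe set the values were nearly equal in Aska-SS, and the fall came from the other 3 lines. In the other probe sets of *DNAJC3* the highest change of any line was -0.37, -0.36 and 0.27. *DNAJB9* (ERdj4), a co-chaperone that brings BiP to IRE1 and whose gene is a known target of XBP1, did not pass at 3 µM, with a log2 change of -0.04 (95% confidence interval -0.29 to 0.20, limma adjusted p = 0.795). *DNAJB9* intensities were 1518, 5288, 1240 and 2062 at 3 µM and 1899, 5351, 1469 and 1542 at 0 µM. It was higher in Aska-SS and lower in the other 3 lines. *HSPA13*, an Hsp70-like protein of the microsomes, had a log2 change of -0.15 (interval -0.32 to 0.02, adjusted p = 0.142).

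**Figure D2:**
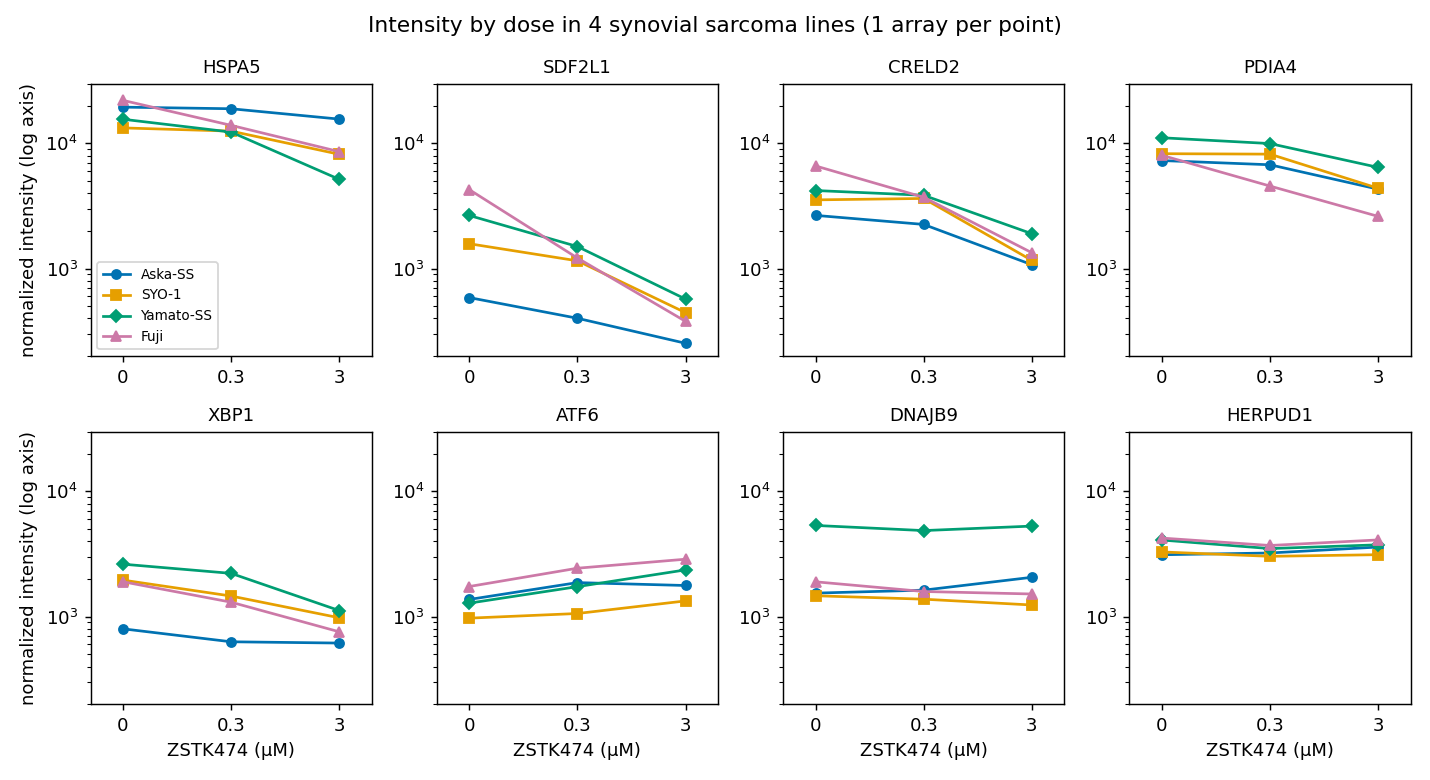
Normalized intensity (vertical axis, log scale) at 0, 0.3 and 3 µM ZSTK474 for 8 ER genes, with 1 line and symbol per cell line and 1 array per point. *HSPA5*, *SDF2L1*, *CRELD2*, *PDIA4* and *XBP1* end lower than they began in all 4 lines, and *ATF6* ends higher. *HERPUD1* has log2 changes of -0.13 to 0.20 at 3 µM over 0 µM. *DNAJB9* has changes from -0.32 in Fuji to 0.42 in Aska-SS, and is at 4869.7 to 5351 in Yamato-SS and at 1240 to 2062 in the other lines.

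Of the lectin chaperones, which hold glycoproteins by their sugar chains, *CALR* (calreticulin) fell by 0.58 (SE 0.16, adjusted p = 0.0111) and *CANX* (calnexin) did not pass, with a log2 change of 0.01 (interval -0.14 to 0.16, adjusted p = 0.939). At 3 µM *CALR* stood at 5098, 4256, 4019.5 and 8734, against 10200.2, 8282, 5698 and 7885 at 0 µM. By its brightest probe set *CALR* was higher in Aska-SS and lower in the other 3 lines. This call was lost without Yamato-SS (adjusted p = 0.0753) and without Fuji (adjusted p = 0.0654). The other probe sets of *CALR* changed by -0.36 and -1.16, with a highest change in any line of 0.16 and -0.22. *CANX* was at 11179, 10347, 13031 and 14861.5 with 3 µM and at 12282, 11603, 11749 and 13089 with vehicle. *CANX* was higher in Aska-SS and SYO-1 and lower in Yamato-SS and Fuji.

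All 5 measured disulfide isomerases and oxidases fell at 3 µM (100%, against 21.1% of all genes). Their median log2 change was -0.53, against 0.01 for all genes. *PDIA4* (ERp72) fell by 1.02 (SE 0.13, adjusted p = 9.01e-05). For *PDIA4*, the intensities at 3 µM were 2615, 6435, 4384.5 and 4312, and those at 0 µM were 8036, 11093, 8276 and 7295. The groups of *PDIA4* did not overlap, and the lowest array was that of Fuji. *PDIA6* (P5) fell by 0.71 (SE 0.12, adjusted p = 0.000687). *PDIA6* intensities were 6529, 9514, 6052 and 10718 at 3 µM and 16152, 12795.5, 9818 and 14174 at 0 µM. The groups of *PDIA6* overlap through Aska-SS alone. *PDIA3*, which encodes ERp57, the isomerase that works with the lectins, fell by 0.53 (SE 0.07, adjusted p = 0.000145). At 3 µM *PDIA3* stood at 13243, 15526, 6555 and 15343, against 22394, 20575, 10281 and 19168 at 0 µM. SYO-1 held the lowest *PDIA3* level with and without the drug. *P4HB*, the classical protein disulfide isomerase, fell by 0.38 (SE 0.09, adjusted p = 0.00574). *P4HB* was at 8173, 13757.5, 7246.5 and 7903 with 3 µM and at 14478, 16688, 8832 and 8674 with vehicle. Fuji had the largest fall of *P4HB* (-0.82), with -0.29 to -0.13 elsewhere. *ERO1A*, the oxidase that recharges the isomerases, fell by 0.47 (SE 0.12, adjusted p = 0.00658). For *ERO1A*, the intensities at 3 µM were 1159.5, 1089, 994 and 1259, and those at 0 µM were 1684, 1674.5, 1192 and 1725. The 1259 of Aska-SS at 3 µM lay above the vehicle array of SYO-1.

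Of the 6 sensors and regulators 2 were higher (33.3%, against 22.6% of all genes), 1 was lower (16.7%, against 21.1%) and 3 did not pass, shares that lie near those of all genes. *ERN1*, which encodes IRE1, the kinase and endonuclease that splices *XBP1*, had a log2 change of 0.78 (SE 0.14, adjusted p = 0.000736). *ERN1* intensities were 407, 733, 634 and 645 at 3 µM and 277, 483, 327 and 324 at 0 µM. The brightest probe set of *ERN1* was higher in each line, and the treated array of Fuji lay below the vehicle array of Yamato-SS. The call was lost with the mean of its 3 probe sets (log2 change 0.10, adjusted p = 0.633), and the other 2 had log2 changes of -0.31 and -0.18. *ATF6*, which encodes the membrane-bound transcription factor, had a log2 change of 0.61 (SE 0.11, adjusted p = 0.00076). At 3 µM *ATF6* stood at 2877, 2364, 1336 and 1774, against 1742, 1283, 973 and 1373 at 0 µM. *ATF6* was higher in each line, and SYO-1 held the lowest level at each dose. *XBP1*, which encodes the transcription factor that IRE1 activates, had a log2 change of -0.98 (SE 0.15, adjusted p = 0.000283). *XBP1* was at 758, 1119, 980.2 and 616 with 3 µM and at 1900.4, 2626, 1959 and 800.1 with vehicle. The log2 change was -0.38 in Aska-SS, whose vehicle level was the lowest, and lay between -1.33 and -0.999 in the other 3 lines.

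The other regulators did not pass at 3 µM. *EIF2AK3*, which encodes PERK, had a log2 change of -0.20 (interval -0.46 to 0.06, adjusted p = 0.196), with a positive change in Aska-SS and a negative one in the other 3 lines. For *EIF2AK3*, the intensities at 3 µM were 1379, 771, 1338 and 1383, and those at 0 µM were 1891, 1028, 1441 and 1232. Yamato-SS held the lowest treated level. *PPP1R15A*, which encodes GADD34, the phosphatase subunit that ends the signal of PERK, had a log2 change of 0.34 (interval 0.03 to 0.65, adjusted p = 0.0716) with a positive change in 4 of 4 lines. *PPP1R15A* intensities were 365, 345, 479 and 570.2 at 3 µM and 335, 213, 410.3 and 455 at 0 µM. *PPP1R15A* passed without quantile normalization (log2 change 0.49) and with the mean of its probe sets (0.39). *WFS1*, which encodes wolframin, a membrane protein of the ER, had a log2 change of -0.20 (interval -0.43 to 0.02, adjusted p = 0.134).

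In ERAD, 3 of 6 measured genes fell (50%, against 21.1% of all genes) and 1 rose (16.7%, against 22.6%). With 6 genes, these shares differ from those of all genes by few genes. *DERL2*, a derlin of the channel by which proteins leave the ER, fell by 0.71 (SE 0.10, adjusted p = 0.00017). At 3 µM *DERL2* stood at 1659, 1167, 1535 and 2038.5, against 2990, 2101, 2498 and 2739 at 0 µM. *SELENOS*, a selenoprotein that binds the derlins, fell by 0.43 (SE 0.08, adjusted p = 0.00149). *SELENOS* was at 3805, 4892, 4424 and 4456 with 3 µM and at 6266, 6271, 5251 and 5788 with vehicle. In both genes every treated array lay below every vehicle array. *EDEM1*, which picks out glycoproteins for degradation, fell by 0.36 (SE 0.11, adjusted p = 0.0192). For *EDEM1*, the intensities at 3 µM were 1054, 397, 515 and 674, and those at 0 µM were 1215, 546, 607 and 987. Its groups overlap, with the lines farther apart than the doses, and its call was lost without Aska-SS (adjusted p = 0.0962) and without Yamato-SS (adjusted p = 0.0757). *SEL1L*, the adaptor of the ubiquitin ligase HRD1, rose by 0.51 (SE 0.09, adjusted p = 0.000764). *SEL1L* intensities were 3346, 3171, 2502 and 4411 at 3 µM and 2862, 1901, 1796 and 2912 at 0 µM. The call was lost with the mean of its 4 probe sets (log2 change 0.08, adjusted p = 0.568), of which 2 had negative log2 changes (-0.17 and -0.23). *HERPUD1*, a known target of the unfolded protein response that joins the ligase complex, did not pass, with a log2 change of -0.01 (interval -0.18 to 0.15, adjusted p = 0.92). At 3 µM *HERPUD1* stood at 4101, 3749, 3126 and 3597, against 4244, 4093, 3288 and 3122 at 0 µM. *DERL1* had a log2 change of -0.07 (interval -0.24 to 0.09, adjusted p = 0.464).

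In translocation, *SEC61B* and *SEC61A1*, subunits of the channel, and *SSR1*, a subunit of the complex bound to it, fell. *SEC61B* fell by 0.77 (SE 0.07, adjusted p = 1.05e-05), with the smallest adjusted p of the 33 genes. *SEC61B* was at 10521, 14644, 8264 and 9424 with 3 µM and at 20056, 26394.5, 14174 and 13512 with vehicle. The treated array of Yamato-SS lay above the vehicle arrays of Aska-SS and SYO-1. *SEC61A1* fell by 0.73 (SE 0.08, adjusted p = 2.94e-05). For *SEC61A1*, the intensities at 3 µM were 2100.2, 1905.5, 2404 and 2633, and those at 0 µM were 3881, 3152, 4017 and 3851. The 4 changes of *SEC61A1* lay between -0.89 and -0.55, with no overlap of the groups. *SSR1* fell by 0.34 (SE 0.09, adjusted p = 0.0118). *SSR1* intensities were 7725.5, 10684, 9534 and 7629.8 at 3 µM and 12312.5, 13269, 12374 and 7529 at 0 µM. By its brightest probe set the change of *SSR1* in Aska-SS was 0.02. This call was lost without SYO-1 (adjusted p = 0.0566) and without Fuji (adjusted p = 0.0725). In the other probe sets of *SSR1* that fell, the highest change of any line was -0.25, -0.64 and -0.41. In those that did not pass it was 0.49 and 0.17. *SEC63*, which brings BiP to the channel, had a log2 change of 0.17 (interval 0.02 to 0.31, adjusted p = 0.0628), with a positive change in 4 of 4 lines.

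At the lower dose of 0.3 µM, 3 of the 33 genes were lower than in vehicle and 0 were higher, where 3.35% of all genes were lower and 4.57% higher. At an unadjusted p under 0.05 there were 15 of the 33, in either direction, and 26.4% of all genes. The median log2 change was -0.17, against -0.000282 for all genes. The 3 genes were *ERO1A*, *DNAJB11* and *SEC61B*. *ERO1A* had a log2 change of -0.59 (SE 0.12, limma adjusted p = 0.0162), with intensities of 923, 1348, 779 and 1150.1 at 0.3 µM. *DNAJB11* had a log2 change of -0.59 (SE 0.13, adjusted p = 0.0228), with intensities of 3015, 4129, 3305 and 4371 at 0.3 µM. *SEC61B* had a log2 change of -0.26 (SE 0.07, adjusted p = 0.0353), with intensities of 16152, 21595, 11512 and 12282 at 0.3 µM. *DNAJB11* is the 1 gene of the 33 whose arrays at 0.3 µM all lay below the vehicle arrays (1.1% of all genes), and for 0 genes they all lay above (0.907%). Few or no genes were called lower with a line left out, 0 without Aska-SS, without SYO-1 or without Fuji and 1 without Yamato-SS. The share of all genes lower in those fits, which hold fewer arrays, is not given here. *SDF2L1* had the largest change at 0.3 µM, -0.91 (SE 0.27, adjusted p = 0.0571), and was lower in 4 of 4 lines. *ATF6* had a log2 change of 0.37 (adjusted p = 0.0534), and *SEL1L* one of 0.29 (adjusted p = 0.0707), both higher in 4 of 4 lines. In all, 14 genes were lower at 0.3 µM in each of the 4 lines and 3 were higher in each, where 19.3% and 19.9% of all genes did so.

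From 0.3 to 3 µM, 15 of the 33 genes were lower at the higher dose and 2 were higher, *ERN1* and *SEC63*, where 8.09% of all genes were lower and 7.25% higher. This comparison and that of 0.3 with 0 µM share the arrays at 0.3 µM. *CRELD2* had the largest step, with a log2 change of -1.30 (SE 0.16, limma adjusted p = 0.00153), and its 4 arrays at 3 µM all lay below those at 0.3 µM, the 1 gene of the 33 for which they did (1.48% of all genes). For 0 genes they all lay above (1.41%). In each of the 4 lines 20 genes were lower at 3 than at 0.3 µM and 6 were higher, where 19.1% and 20.4% of all genes did so. *CRELD2* intensities were 1341, 1902, 1165 and 1076 at 3 µM, against 3716, 3853, 3634 and 2255 at 0.3 µM. Its change at 0.3 µM over vehicle was -0.29. *SDF2L1* fell by a further 1.28 (SE 0.27, adjusted p = 0.00971), *MANF* by 0.81 (SE 0.16, adjusted p = 0.0085), *PDIA4* by 0.75 (SE 0.13, adjusted p = 0.00448) and *HSPA5* by 0.71 (SE 0.17, adjusted p = 0.0154). *CALR*, with a log2 change of 0.0018 at 0.3 µM, fell by 0.58 over this step (adjusted p = 0.0305). *ERO1A* differed from these, with a change of -0.59 at 0.3 µM over vehicle and 0.13 between 0.3 and 3 µM (interval -0.13 to 0.38, adjusted p = 0.514). *ERN1* had a log2 change of 0.45 (SE 0.14, adjusted p = 0.0446) and *SEC63* of 0.22 (SE 0.07, adjusted p = 0.0468). Without SYO-1 4 genes were lower at 3 than at 0.3 µM, and without Yamato-SS 6. The 2 higher calls were not stable, with 0 genes higher without Aska-SS, without SYO-1 or without Yamato-SS and 1 without Fuji. The shares of all genes called in these fits, which hold fewer arrays, are not given here.

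**Figure D3:**
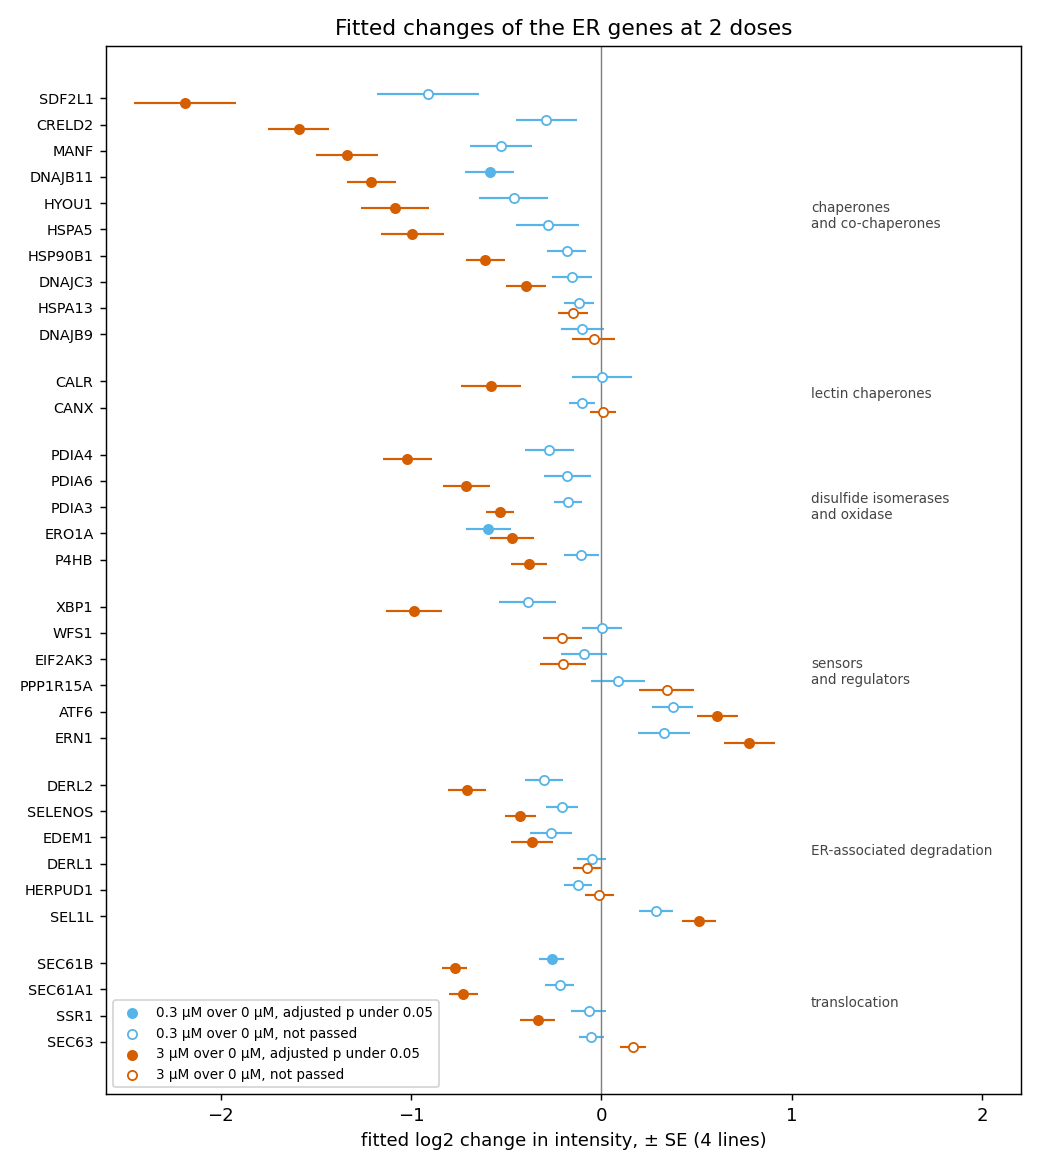
Fitted log2 change in intensity with its standard error (horizontal axis, n = 4 cell lines) of the 33 ER genes at 0.3 µM over 0 µM (blue) and at 3 µM over 0 µM (orange), filled where the limma adjusted p was under 0.05. At 0.3 µM the filled points are *DNAJB11*, *ERO1A* and *SEC61B*, and *ERO1A* alone of the called genes has a larger change at 0.3 than at 3 µM.

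The size of the fall differed between the lines. Within a line there is 1 array per dose and no test, and a change of at least 1 on the log2 scale was counted. At 3 µM, 10 of the 33 genes in Fuji, 6 in Yamato-SS, 4 in SYO-1 and 2 in Aska-SS were lower by that much, where 9.52%, 5.25%, 3.49% and 6.25% of all genes were, and 0 genes were higher by that much in each line (9.89%, 5.92%, 4.29% and 4.76% of all genes). The median log2 change of the 33 genes was -0.72 in Fuji, -0.43 in Yamato-SS, -0.38 in SYO-1 and -0.19 in Aska-SS, and that of all genes lay between -0.01 and 0.03. The fall was largest in Fuji for 17 of the 21 genes called lower, and smallest, or turned to a rise, in Aska-SS for 17. *SDF2L1* changed by -3.49 in Fuji, -2.22 in Yamato-SS, -1.83 in SYO-1 and -1.21 in Aska-SS. *HSPA5* did not follow that order, with its largest change in Yamato-SS (-1.59) and then Fuji (-1.36), SYO-1 (-0.70) and Aska-SS (-0.32). *ERN1* went the other way, with its largest rise in Aska-SS (0.99) and its smallest in Fuji (0.56). At 0.3 µM 1 gene in 1 line passed the same mark, *SDF2L1* in Fuji (-1.81), where 4.2% of all genes did so, against 1.75% in Yamato-SS, 1.22% in SYO-1 and 1.55% in Aska-SS. Control probe sets at both ends of the beta actin transcript show RNA breakage as a larger 3′ over 5′ ratio. On the log2 scale this ratio was higher at 3 µM than at 0 µM by 0.59 in Fuji, 0.20 in Yamato-SS, 0.12 in SYO-1 and 0.21 in Aska-SS, and the same ratio for GAPDH differed by -0.13 to 0.15. Its part in the larger changes of Fuji was not tested. Without Fuji, 19 of the 33 genes were lower and 3 higher at 3 µM. The share of all genes called in that fit is not given here. The beta actin ratio was also higher at 3 µM in the lines that remain, so that fit does not remove RNA breakage.

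The vehicle levels of these genes also differed between the lines, with 1 array each and no test. *SDF2L1* was at 588 in Aska-SS and 4276 in Fuji, and *XBP1* at 800 in Aska-SS and 1900 to 2626 in the other 3 lines. *DNAJB9* was at 5351 in Yamato-SS and 1469 to 1899 in the others. *PDIA3* was at 10281 in SYO-1 and 19168 to 22394 in the others. *HERPUD1*, *SELENOS* and *CANX* were nearly even, with SDs of 0.22, 0.12 and 0.08 on the log2 scale over the 4 vehicle arrays, against 1.23 for *SDF2L1*. Levels of different genes come from different probes and are not compared here.

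The change at 3 µM in the lines with *SS18-SSX1* was set against that in the lines with *SS18-SSX2* by an interaction term, which passed for 0 of the 33 genes (6 at an unadjusted p under 0.05) and 0% of all 12132 genes (6.47% at an unadjusted p under 0.05). *CRELD2* changed by -1.23 in the *SS18-SSX1* lines and by -1.95 in the *SS18-SSX2* lines (difference 0.73, interval 0.14 to 1.31, limma adjusted p = 0.763). *PDIA6* changed by -0.42 in the *SS18-SSX1* lines and by -1.002 in the *SS18-SSX2* lines (difference 0.59, interval 0.16 to 1.02, adjusted p = 0.763). *SDF2L1* had the widest interval of the difference, -0.18 to 2.07. With 2 lines of each kind, the fusion gene cannot be told apart from other differences between the lines.

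Several genes were read by more than 1 probe set, which shows how far a change depends on the stretch of transcript read. Of 85 probe sets of the members, 80 passed the brightness filter, and 23 genes had several that did. In 17 of these genes the log2 changes of all probe sets had the same sign, in 9 all passed the test in that direction, and in 0 did probe sets pass in opposite directions. The 2 probe sets of *HSPA5* changed by -0.99 and -0.998, and the 2 of *PDIA4* by -1.02 and -1.04. The 4 of *PDIA6* changed by -0.71 to -1.0006, and the 3 of *PDIA3* by -0.53 to -1.19. *ERN1* and *SEL1L* passed with the brightest probe set alone, and the 3 others of *SEL1L* had log2 changes of 0.20, -0.17 and -0.23. *ATF6* passed with 2 of 4 probe sets, and all 4 had positive log2 changes, of 0.25 to 0.68. *DERL2* fell in 1 of 2, with -0.08 in the other. *HSP90B1* also fell in 1 of 2, with -0.39 in the other, whose lines ranged from -1.04 to 0.67. *SEC61B* fell by the brightest, and its other probe set, at a mean intensity of 65.4, had -0.05. For *DERL1* and *HSPA13* the brightest probe set did not pass, but others did, with -0.30 and -0.43 for *DERL1* and -0.46 for *HSPA13*. *SSR1* was read by 6, of which 4 fell by 0.34 to 0.88 and 2 had 0.06 and 0.29, not passed. *SEC63* was read by 5, with 1 that fell (-0.33) beside the brightest at 0.17. A second, dim probe set of *XBP1*, below the filter, had a log2 change of 0.50.

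**Figure D4:**
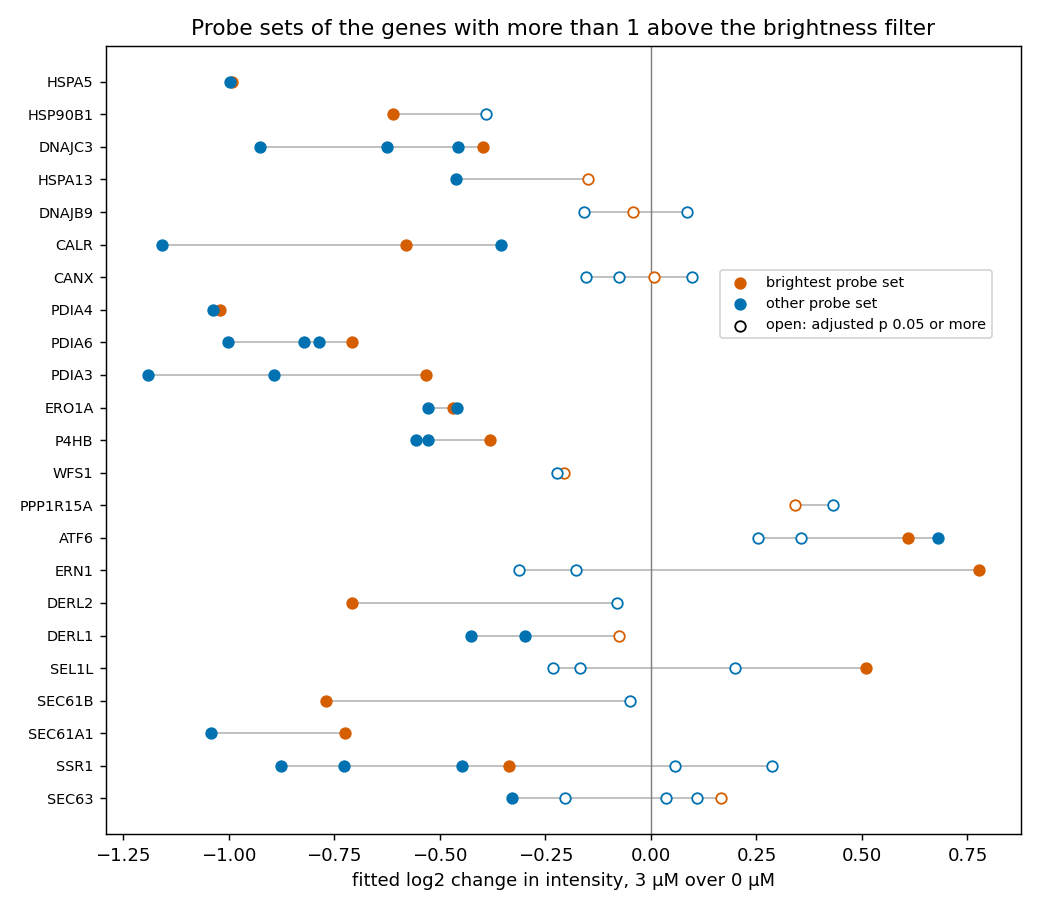
Fitted log2 change at 3 µM over 0 µM (horizontal axis) of every probe set above the brightness filter, for the 23 ER genes with more than 1, orange for the brightest and blue for the others, filled where the adjusted p was under 0.05. The probe sets of *HSPA5*, *PDIA4* and *ERO1A* lie close together, while those of *ERN1* and *SEL1L* lie on both sides of 0.

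Other genes of the same paths were taken from lists written beside the 35, and their shares are read against the 21.1% of all genes that were lower and the 22.6% that were higher at 3 µM. Of 14 other ER chaperones and folding factors 7 fell (50%) and 1 rose (7.14%), with a median log2 change of -0.28. *FKBP14*, a prolyl isomerase, had -1.33 (SE 0.11, limma adjusted p = 9.1e-06) and *MESD*, the chaperone of lipoprotein receptors, -0.76, and *DNAJC1* had 0.50. Of 13 other oxidoreductases 5 fell (38.5%) and 2 rose (15.4%, median -0.08), with *TMX2* at -0.78 and *PRDX4* at -0.56 and with *TMX4* at 0.76 and *ERP29* at 0.50. Of 18 other ERAD genes 8 fell (44.4%) and 4 rose (22.2%, near the share of all genes, median -0.18), led by *DERL3* (-1.03) and the ubiquitin-conjugating enzyme *UBE2G2* (-0.87), and by *HERPUD2* (0.77) and the lectin *OS9* (0.63). Genes of signal recognition, translocation and signal peptide cleavage fell in 12 of 19 (63.2%) and rose in 2 (10.5%, median -0.23), with *SRP19* at -0.87, *SEC11C* at -0.86, *SEC62* at 0.33 and *SEC11A* at 0.23. Of 15 genes of N-glycosylation and glycan trimming 9 fell (60%) and 1 rose (6.67%, median -0.34), with *ALG8* at -1.18, *UGGT1*, which returns misfolded glycoproteins to the lectins, at -0.76 and *OSTC* at 0.18.

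Of 15 further regulators of the unfolded protein response and targets of its PERK arm, 5 were higher and 5 lower (33.3% each, against 22.6% and 21.1% of all genes, median 0.07), a few genes from what those shares give. *ATF4*, the transcription factor of that arm, had a log2 change of 0.87 (SE 0.12, limma adjusted p = 0.000189), and *DDIT3*, which encodes CHOP, had 0.60 (SE 0.15, adjusted p = 0.00585). *DDIT3* had -0.22 at 0.3 µM (adjusted p = 0.379). *EIF2S1*, which encodes the alpha subunit of eIF2, had -0.94, and *ATF3*, a stress-responsive transcription factor, -0.73. Of 11 heat shock chaperone genes of the cytosol and nucleus 7 fell (63.6%) and 2 rose (18.2%, median -0.59), with *STIP1*, which joins Hsp70 and Hsp90, at -1.78 (SE 0.15, adjusted p = 1.05e-05) and *DNAJA1* at -1.04. *HSF1*, the transcription factor of heat shock genes, had 0.62 and *DNAJB6* had 0.47. The differences between these lists were not tested.

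**Figure D5:**
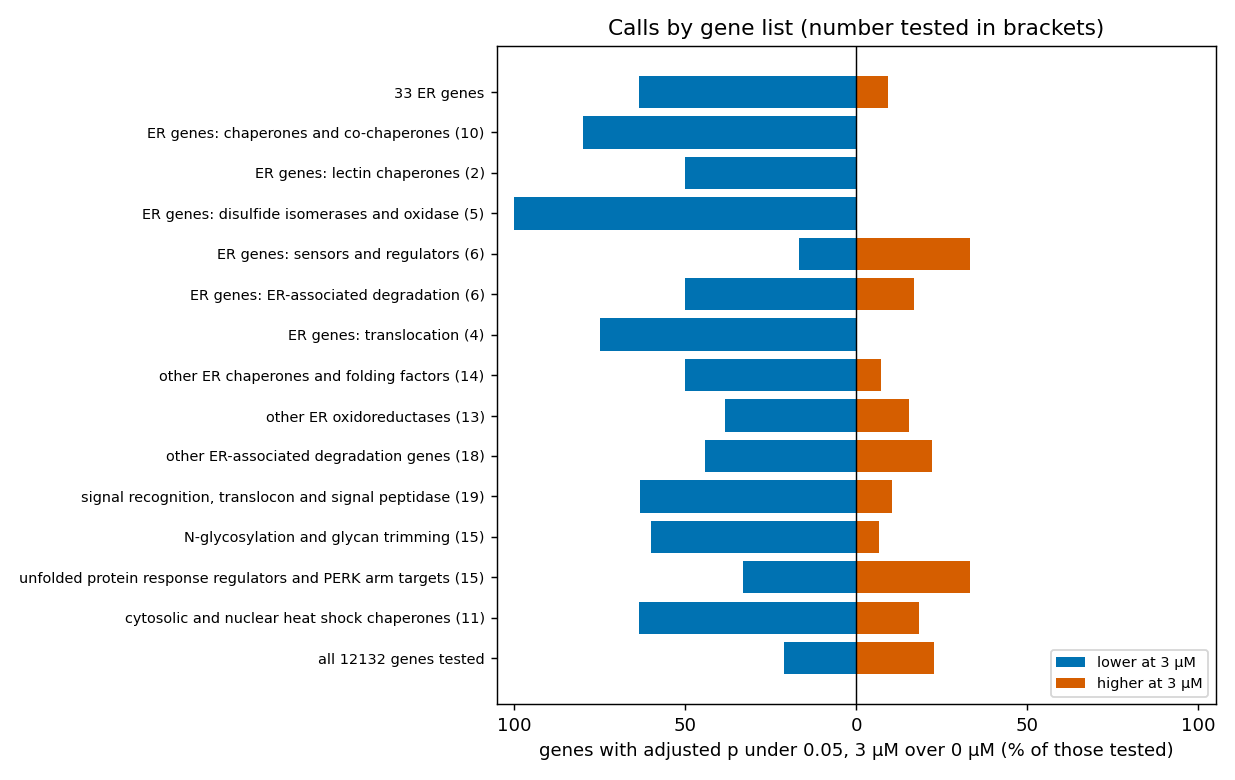
Share of genes lower (blue, to the left) and higher (orange, to the right) at 3 µM than at 0 µM in % of those tested, limma adjusted p under 0.05, for the 33 ER genes, their 6 role groups, 7 further lists and all 12132 genes. The 33 ER genes had 63.6% lower and 9.09% higher, against 21.1% and 22.6% of all genes.

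Markers of the labelled cell type were present in all lines with 1 exception. Of 8 SS markers 7 were measured and all 7 passed the filter. Their summed intensity per array was 48945 to 72468 in vehicle, 53024 to 77590.5 with 0.3 µM and 53891 to 78073 with 3 µM. A large part of each sum was *VIM*, at 30977 to 36374 per array. At 3 µM 4 of the 7 were higher than in vehicle (57.1%, against 22.6% of all genes) and 0 were lower, with a median log2 change of 0.29, and their part in the changes of the ER genes was not tested. *TWIST1* was at 31.9 to 59.7 in Fuji, below its 1644 to 4415 in the rest. Of 8 leukocyte and endothelial markers 7 were measured and 1 passed, *PECAM1*. Their sums were 288 to 442 in vehicle, 246 to 385 with 0.3 µM and 265 to 325 with 3 µM, and *CD14* was at the floor of 12.1 on every array.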

How the data were processed

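RNA of 4 SS cell lines at 3 doses of ZSTK474 was hybridised to 12 Affymetrix U133 Plus 2.0 arrays. The authors deposited MAS5 intensities on a linear scale (version and build not given in the sources used here), with 54675 probe sets per array. The study's methods name quantile normalization, which the deposited intensities do not show, so it was applied here with limma 3.58.1 in R 4.3.3. Values under the 20th percentile (an intensity of 12.1) were set to it before log2. Probe sets with exactly 1 gene symbol in the platform annotation (41097, with 1801 carrying several symbols and 11777 unnamed) were filtered by a mean log2 value over 6.03, the middle of the table, and each gene was read by its brightest one. Dose and cell line were fitted to all 12 arrays with lmFit and eBayes with a variance trend, and p-values were adjusted by Benjamini-Hochberg over 12132 genes at a threshold of 0.05. Precision is limited by how many arrays there are, since intensities carry no read depth.

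Arrays of the same line were taken as matched because the labels name the line. Their deviations from the dose means correlated at 0.828 to 0.931, against -0.43 to -0.0892 between lines. Subtracting these means itself pushes the values between lines below 0, so the contrast describes the lines and does not test the matching. The interaction with the fusion gene used 2 lines of each kind, taken from the study's description, not from the labels. Alternatives changed the normalization, floor, filter, choice of probe set, block, variance model, arrays and cell lines. All measured members are named, and of each other list up to 2 of the largest rises and 2 of the largest falls at 3 µM among those that passed. The members and lists were chosen with earlier results of these data known. Promoter sequences are from RefSeq (GRCh38.p14) and no protein sequences were used. Listed genes without a probe set of 1 symbol (such as *TXNDC5*, *SEC61G*, *HSPA8* and *AHSA1*) are not analysed here. Figures were drawn with matplotlib 3.10.9 in Python 3.11.15.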

Additional observations from a re-analysis of the deposited data

Results flagged for a closer look

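Among 198 sets of 4 values of the ER genes, 9 held a value that passed Dixon's critical value. The measure was its gap to the nearest other value, divided by the range of the set. Chance alone gives about 5% of the sets, so these 9 are no more than chance alone would give. The sets share arrays and are not independent. In 3 of the 9 sets the value was a log2 change. *SEC63* had a change of 0.053 in Yamato-SS at 3 µM over 0 µM, against 0.19 to 0.22 in the other lines. *ATF6* had 0.12 in SYO-1 at 0.3 µM over 0 µM, against 0.44 to 0.49. *SEC61B* had -0.14 in Aska-SS at 0.3 µM over 0 µM, against -0.31 to -0.29.

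The other 6 were log2 levels. At 0 µM *ERO1A* was at 10.22 in SYO-1, against 10.71 to 10.75 in the other lines, and *SSR1* was at 12.88 in Aska-SS, against 13.59 to 13.70. At 0.3 µM *DNAJB9* was at 12.25 in Yamato-SS, against 10.43 to 10.67, *CRELD2* was at 11.14 in Aska-SS, against 11.83 to 11.91, and *PDIA3* was at 13.21 in SYO-1, against 14.12 to 14.18. *EIF2AK3* was at 9.59 in Yamato-SS at 3 µM, against 10.39 to 10.43.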

How the results depend on the processing

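At 3 µM over 0 µM, 19 to 20 of the ER genes were lower and 3 higher with any one line left out, and the other alternatives gave 19 to 23 lower and 2 to 4 higher, except the fit without the cell line block, which ignores the matched arrays and gave 4 lower (*HYOU1*, *DNAJB11*, *CRELD2* and *SEC61A1*) and 0 higher. Without the block 0 genes were lower and 0 higher between 3 and 0.3 µM and 0 were lower at 0.3 over 0 µM. At 0.3 over 0 µM, the number lower was 0 with no filter, 0 without the variance trend, 6 with array weights, 7 with the arrays of these 2 doses alone and 0 to 1 with a line left out. The number higher was 1 without quantile normalization, 1 with the filter at the 65th percentile, 2 with array weights and 2 with the arrays of these 2 doses alone. At 3 over 0.3 µM, the number lower was 6 with no filter, 8 without the variance trend and 4 to 15 with a line left out, and the number higher was 1 without quantile normalization, 1 with no filter, 0 with the mean of the probe sets, 0 without the trend and 0 to 1 with a line left out. Calls lost at 3 µM were *DNAJC3* without SYO-1, *EDEM1* without quantile normalization, with array weights and with the arrays of 2 doses, *CALR* and *SSR1* with no filter, and *ERN1* and *SEL1L* with the mean of the probe sets, and the cause was not tested. Genes near 0 changed sign at 3 over 0 µM. With a line left out, *DNAJB9* ranged over -0.20 to 0.052, *CANX* over -0.051 to 0.066 and *HERPUD1* over -0.083 to 0.027. *CANX* was at -0.062 without quantile normalization and -0.031 with the mean of the probe sets, and *HERPUD1* at 0.0097 with array weights. With the mean of the probe sets *SEC63* was at -0.044 over 0 µM and -0.034 over 0.3 µM, and *SEC61B* at 0.017 at 0.3 over 0 µM. The share of all genes called by each alternative is not given here, so these counts describe the ER genes alone. With 1 array per line and dose, the spread within a line is unknown.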
